A study of Rattus norvegicus with 6 samples.

Results

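S100 proteins are small calcium-binding proteins, and 10 of their genes were followed in pancreatic duct glands of HIP and wild-type rats: S100a1, S100a4, S100a6, S100a8, S100a9, S100a10, S100a11, S100a13, S100b and S100g. They were taken by symbol from the gene column, and all 10 were present among 15675 symbols that stand on a single row. There were 3 HIP libraries (HIP30, HIP2 and HIP3) and 3 wild-type libraries (WT26, WT1 and WT4), all from Sprague-Dawley rats, and each library is named by the number in its title. HIP rats are transgenic for human islet amyloid polypeptide (HIAPP), are called pre-diabetic by the submitters, and carry the human gene under an insulin promoter, which drives it in beta cells. Pancreatic duct glands are mucin-producing pouches in the wall of the larger ducts; they were recognised by shape, cut out with a laser microdissection microscope and sequenced as total RNA with a kit for very low input. The labels give neither age nor sex, and they do not state that the libraries of a group stem from separate rats. The p-values below therefore describe library-to-library spread, part of which may be technical.

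An S100 protein usually forms a dimer, changes shape when calcium binds to its EF-hand loops, and then holds a partner protein such as an annexin or a myosin. Some members act outside the cell, where S100a8 and S100a9 form calprotectin, an alarm signal of neutrophils and monocytes. In epithelium S100a6, S100a10 and S100a11 are widely expressed, S100a4 is best known from fibroblasts, macrophages and motile epithelial cells, and S100b from glia. In the RefSeq annotation of the rat assembly GRCr8, 8 of the 10 genes lie on chromosome 2, S100b on chromosome 20 and S100g on chromosome X. On chromosome 2, S100a1 lies beside S100a13, S100a4 has S100a3 and S100a5 as neighbours, S100a6 follows S100a5, S100a8 lies beside S100a9, and S100a11 beside S100a10. The spans of these neighbours do not overlap in that assembly. The submitters' processing notes name an older build, rn5.

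The 6 libraries held 15141136 to 17574682 reads on the listed genes. At these similar depths, 2440, 2155 and 1837 genes had no read in HIP30, HIP2 and HIP3, against 2822, 2488 and 672 in WT26, WT1 and WT4. The cause of this unequal detection was not tested. Levels are given as scaled CPM, which are counts per 1e6 reads (CPM) after a correction for composition between libraries; for a gene without reads, 3 reads allow up to 0.179 to 0.184 scaled CPM, which covers counting error only. Duct epithelium was well represented: the summed level of 10 duct genes was 10414.5 to 13251 scaled CPM in HIP and 10599.8 to 27094 scaled CPM in WT libraries, and WT26 was the highest. Islet genes, which duct glands should lack, summed to 263 to 5067 scaled CPM in HIP and 0 to 11386.5 scaled CPM in WT libraries, and their part in the results was not tested. HIP30 stood apart in proliferation genes: 8 of 10 had no read there and at least 31 reads in every other library. All 10 were negative between HIP and WT, with a median log2 difference of -3.99, which was -1.29 without HIP30, and 0 passed limma's test. Of the 10 S100 genes, 9 had enough reads to be tested and S100a8 had not. In limma's test over 12102 genes, 0 of these 9 passed at a Benjamini-Hochberg adjusted p of 0.05, beside 0% of all tested genes. At an unadjusted p under 0.05 there was 1 member, S100a4, which was lower in HIP, against 6.54% of all tested genes (3.26% lower and 3.29% higher in HIP), and 1 of 9 is too few to set apart from that share. This count of members was 0 without HIP2 or without WT26, and 3 without HIP3 or without WT4. It was 2 with limma-voom and 4 with limma-voom and sample quality weights. The count over all 12102 tested genes moved as well. It was 792 in the main fit, 235 without HIP2, 338 without WT26, 1804 without HIP3 and 1605 without WT4. With limma-voom it was 914, and with sample quality weights 2388. The median log2 difference of the 9 members between HIP and WT was -0.50, and that of all tested genes was 0.00974; 5 members were negative and 4 positive, where 48.9% of all tested genes were negative. No tested member was without overlap between the groups, against 9.54% of all tested genes in either direction.

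The same few libraries were the extremes for several members. WT26 was the highest library for S100a4, S100a6, S100a10, S100a11 and S100g, as for 22.9% of all tested genes, and HIP30 for S100a1, S100a9 and S100a13, as for 23.5%. HIP2 was the highest for S100b, as for 11.6%, and HIP3 for no member, against 12% of all tested genes. The lowest library was HIP30 for S100a4, S100a10 and S100a11 (24.3% of all tested genes), HIP2 for S100a6 (10.1%), HIP3 for S100a1 and S100g (12.3%), WT26 for S100b (26.3%) and WT1 for S100a9 and S100a13 (14.1%).

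**Figure D1:**
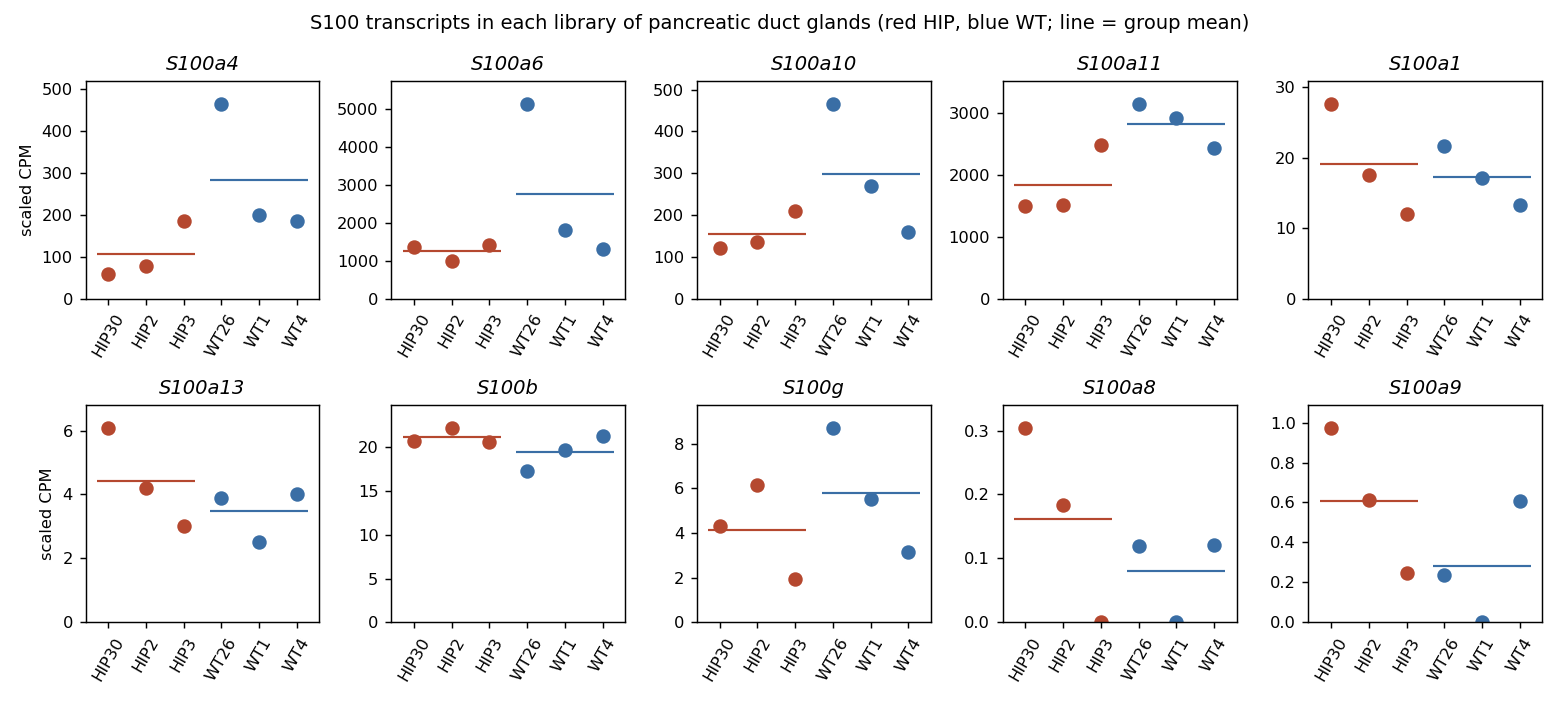
Scaled CPM of the 10 S100 genes in each library, with a separate linear axis per gene; red points are the 3 HIP libraries, blue points the 3 WT libraries and lines the group means. S100a4, S100a6, S100a10 and S100a11 peak in WT26, S100b is nearly level, and S100a8 and S100a9 stay at or below 0.973 scaled CPM.

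S100a4, which binds non-muscle myosin and is used as a marker of fibroblasts and of epithelial to mesenchymal change, had 57.9, 77.9 and 186.3 scaled CPM in HIP30, HIP2 and HIP3, against 463, 199 and 186.0 scaled CPM in WT26, WT1 and WT4. The HIP30 and HIP2 libraries lay below every WT library, HIP3 stood level with WT4, and WT26 was far above all others. The group means were 107 ± 69.1 scaled CPM in HIP and 283 ± 157 scaled CPM in WT (SD, n = 3 each). On the log2 scale HIP minus WT was -1.45 (SE 0.49), so that the fitted HIP level was 36.6% of WT. The gene did not pass limma's test, with a Benjamini-Hochberg adjusted p of 0.691. An exact two-sided permutation test over the 6 libraries gave p = 0.2, where 0.1 is the smallest p that 3 against 3 allow.

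Whether the groups overlapped for S100a4 depended on the scaling. With library totals in place of the composition factors, the highest HIP level was 181.9 CPM and the lowest WT level 185.8 CPM, so the groups did not overlap; the same held with median-of-ratios factors and with totals that leave out dominant genes. Without overlap in that direction lay 4.27% of all tested genes with the composition factors, 3.86% with library totals, 4.67% with median-of-ratios factors and 3.81% without dominant genes. HIP30 differed from WT26 by -3.00 on the log2 scale, and HIP2 and HIP3 from WT1 and WT4 by -0.68. Without HIP30 the S100a4 difference was -1.10, without WT26 it was -1.03 and without HIP3 it was -1.94.

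S100a6, calcyclin, a calcium-binding protein of proliferating epithelial cells and fibroblasts, had 1362, 991 and 1429 scaled CPM in HIP30, HIP2 and HIP3, against 5136, 1823 and 1319.8 scaled CPM in WT26, WT1 and WT4. WT26 stood far above every other library, while WT4 lay inside the HIP range. The log2 difference was -0.89 (SE 0.49; limma, Benjamini-Hochberg adjusted p = 0.691; exact permutation p = 0.3). It shrank to -0.32 without WT26.

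S100a10, also called p11, does not depend on calcium and joins annexin A2 in a complex at the plasma membrane. It had 119.8, 136 and 209 scaled CPM in HIP30, HIP2 and HIP3, against 465, 269 and 160.0 scaled CPM in WT26, WT1 and WT4. The groups overlapped because HIP3 stood above WT4. The log2 difference was -0.85 (SE 0.39; limma, Benjamini-Hochberg adjusted p = 0.691; exact permutation p = 0.2), and it was -0.46 without WT26.

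S100a11, a partner of annexin A1 that regulates keratinocyte growth in human skin, had 1495.6, 1509 and 2487 scaled CPM in HIP30, HIP2 and HIP3, against 3135, 2909.7 and 2429 scaled CPM in WT26, WT1 and WT4. HIP30 and HIP2 were below all WT libraries and HIP3 lay just above WT4. The log2 difference was -0.66 (SE 0.31; limma, Benjamini-Hochberg adjusted p = 0.691; exact permutation p = 0.2). With library totals the highest HIP level was 2429 CPM and the lowest WT level 2525 CPM, so that the groups did not overlap. Nor did they with totals that leave out dominant genes, where these levels were 2450 and 2539 CPM, while they overlapped with median-of-ratios factors. Of all tested genes, 3.86% lay without overlap in the lower direction with library totals and 3.81% without dominant genes. Copies of the gene, S100a11l1 and S100a11l2, are annotated elsewhere in GRCr8, and reads that such copies share with S100a11 could not be separated.

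**Figure D2:**
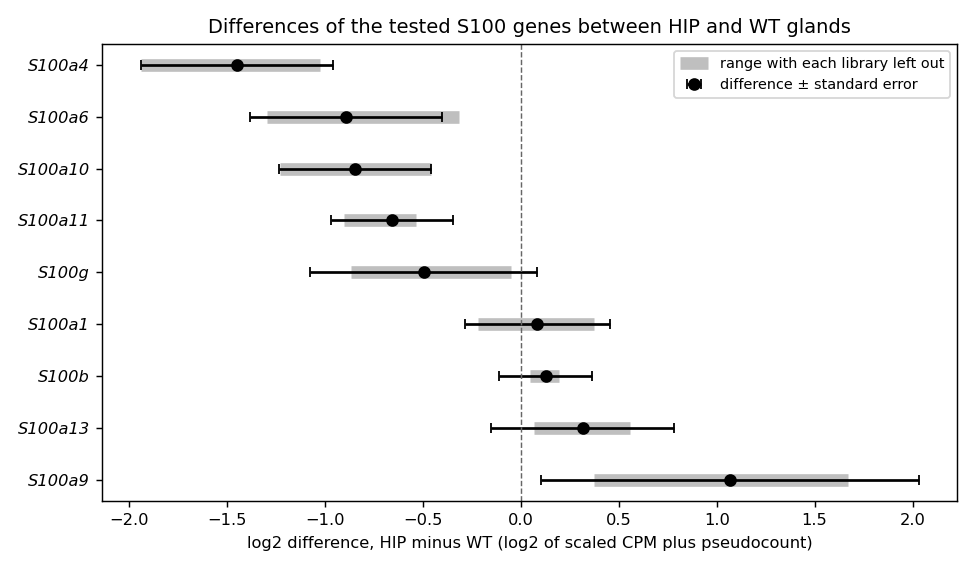
Log2 differences of the 9 tested S100 genes between HIP and WT libraries; points and whiskers are the difference and its standard error, grey bars the range when each library is left out in turn. S100a4 has the lowest value, -1.45, and the bar of S100a1 crosses 0.

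The promoters of S100a4, S100a6 and S100a11 are shown because these genes were highest in WT26 and had negative differences, and that of S100b because its level varied least. Each is the RefSeq window of 250 bases before to 50 bases after the gene start in GRCr8, printed 5′ to 3′ on the gene's strand, with motif matches in capitals. S100a4 is read from chr2:178388279-178388578 (plus strand), S100a6 from chr2:178398287-178398586 (plus strand), S100a11 from chr2:181874882-181875181 (plus strand) and S100b from chr20:12381032-12381331 (minus strand). The window was given for 6 of the 10 members.
S100a4: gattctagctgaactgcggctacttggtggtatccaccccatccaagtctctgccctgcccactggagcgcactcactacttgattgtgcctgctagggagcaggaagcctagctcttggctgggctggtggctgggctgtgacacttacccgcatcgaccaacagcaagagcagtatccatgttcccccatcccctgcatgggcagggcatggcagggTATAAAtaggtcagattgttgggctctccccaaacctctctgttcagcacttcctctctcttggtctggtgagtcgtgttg
S100a6: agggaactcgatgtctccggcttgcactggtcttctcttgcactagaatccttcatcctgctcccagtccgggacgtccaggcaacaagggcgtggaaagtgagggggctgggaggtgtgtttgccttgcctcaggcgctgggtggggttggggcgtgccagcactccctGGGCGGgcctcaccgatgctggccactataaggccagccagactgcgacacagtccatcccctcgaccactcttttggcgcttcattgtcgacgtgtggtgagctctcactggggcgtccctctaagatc
S100a11: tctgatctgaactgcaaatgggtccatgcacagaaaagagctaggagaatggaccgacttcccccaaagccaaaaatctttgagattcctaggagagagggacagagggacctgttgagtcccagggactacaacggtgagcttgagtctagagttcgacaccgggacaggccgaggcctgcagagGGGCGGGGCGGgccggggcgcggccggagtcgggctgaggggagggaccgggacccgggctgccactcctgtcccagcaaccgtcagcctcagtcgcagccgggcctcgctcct
S100b: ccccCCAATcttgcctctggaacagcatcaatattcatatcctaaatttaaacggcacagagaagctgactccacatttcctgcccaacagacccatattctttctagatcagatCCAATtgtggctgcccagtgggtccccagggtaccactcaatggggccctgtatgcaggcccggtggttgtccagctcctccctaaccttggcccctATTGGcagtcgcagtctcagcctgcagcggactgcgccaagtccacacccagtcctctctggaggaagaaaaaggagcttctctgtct

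The capitals mark matches, on either strand, to one of 3 motifs. One is TATAAA, the TATA box that places the start of transcription. Another is CCAAT, bound by factor NF-Y, and the third is GGGCGG, the box of the factor Sp1. The sites of AP-1, searched as TGACTCA, and of C/EBP factors, searched with the letters TTGCNNAA, had 0 matches in the 6 windows. S100a4 held a TATA box that begins 31 bases before the start, and 14.2% of 33469 rat promoters of the same length hold this motif. S100a9 held one too, 42 bases before its start. S100a6 held 1 GC box and S100a11 held 2 that overlap each other, against 33.1% of promoters with at least 1. S100b held 3 of the NF-Y motifs, where 37.5% of promoters hold at least 1. Among the genes highest in WT26, the S100a4 window has a TATA box and no GC box, and the S100a6 and S100a11 windows have GC boxes and no TATAAA. Their GC content was 56.3% for S100a4, 61.3% for S100a6 and 63.0% for S100a11, against a median of 51.7% over all promoters. These matches describe the sequence and do not show that a factor binds there.

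The level of S100a10 was set beside that of its partner in each library. Anxa2, which encodes annexin A2, had 538, 616 and 911 scaled CPM in HIP30, HIP2 and HIP3, against 1881, 1315 and 757 scaled CPM in WT26, WT1 and WT4. The ratio of S100a10 to Anxa2 was 0.223, 0.221 and 0.230 in HIP30, HIP2 and HIP3, against 0.247, 0.205 and 0.212 in WT26, WT1 and WT4. The ratio spread 1.21-fold over the 6 libraries, where S100a10 itself spread 3.88-fold and Anxa2 3.49-fold. A small spread was not particular to this pair: the ratio of S100a10 to Krt19, a keratin that is no partner, spread 1.43-fold. The log2 ratio averaged -2.15 ± 0.0295 in HIP and -2.18 ± 0.14 in WT (SD, n = 3 each), a difference of 0.0273 (exact permutation p = 0.8). The ratios of S100a10 to 7 other annexins spread from 2.23-fold for Anxa11 to 11.4-fold for Anxa3. Of these 7, all but Anxa3 had levels that themselves spread by no more than 2.17-fold, so that a ratio to them had to spread with S100a10. The comparison with these annexins was chosen after the values of Anxa2 were seen, and it carries no test.

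**Figure D3:**
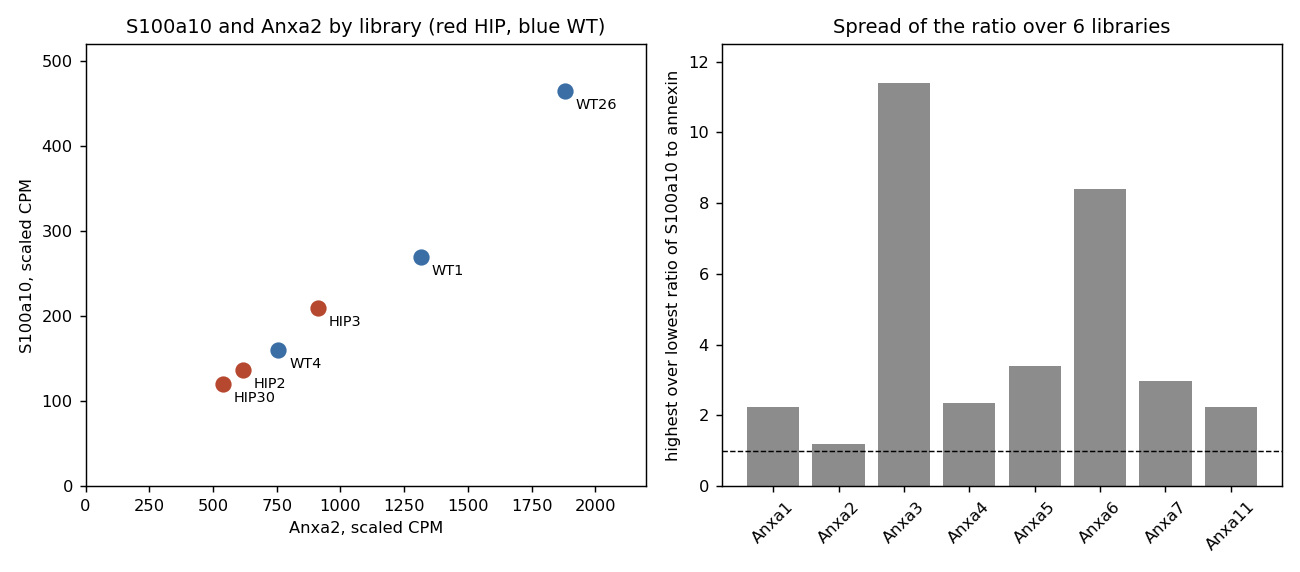
Left, S100a10 against Anxa2 in scaled CPM for each library (red HIP, blue WT). Right, the highest over the lowest ratio of S100a10 to each of 8 annexins over the 6 libraries; the ratio to Anxa2 spreads 1.21-fold and the others at least 2.23-fold.

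Partners inside the cell were taken from a list of 21 genes, all of them tested. Of these, 16 were negative and 5 positive, with a median log2 difference of -0.25 against 0.01 over all tested genes, and 0 passed limma's test. Ahnak, a giant scaffold that binds the S100a10 and annexin A2 complex, stood at 2406 ± 831 scaled CPM in HIP and 5050.2 ± 2094 scaled CPM in WT (SD, n = 3 each), a log2 difference of -1.03. Anxa2 differed by -0.88, and its unadjusted p was the lowest of the list (limma, Benjamini-Hochberg adjusted p = 0.691 for both genes). Myh9, the heavy chain of the non-muscle myosin that S100a4 binds, stood at 86.8 ± 29.4 scaled CPM in HIP and 121 ± 27.9 scaled CPM in WT. Cacybp, the S100a6-binding protein of the ubiquitin pathway, stood at 129.5 ± 35.7 scaled CPM in HIP and 154 ± 39.3 scaled CPM in WT. Myh9 and Cacybp differed by -0.52 and -0.25 on the log2 scale and did not pass (adjusted p = 0.700 and 0.849).

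The duct keratins were likewise highest in WT26. Krt19, the keratin of duct cells, had 1619, 1514 and 2307 scaled CPM in HIP30, HIP2 and HIP3, against 7326, 3072 and 1815 scaled CPM in WT26, WT1 and WT4. Krt8, its partner keratin, had 1617, 1643 and 3004 scaled CPM in HIP30, HIP2 and HIP3, against 8740.1, 3509 and 2105 scaled CPM in WT26, WT1 and WT4. WT4 lay inside the HIP range of Krt8 and Krt19, so that the groups overlapped, as for S100a6 and S100a10. Relative to Krt19 in the same library, S100a6 lay between 0.619 and 0.842 in HIP and between 0.593 and 0.727 in WT libraries.

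Set against Krt19, the log2 difference between HIP and WT was 0.0576 for S100a6, 0.10 for S100a10 and 0.29 for S100a11. For S100a4 it was -0.50 (exact permutation p = 0.8, 0.5, 0.8 and 0.4). Krt19 itself differed by -0.95, so any negative difference smaller in size than that had to turn its sign. The 3 positive values follow from this, and S100a4, at -1.45, could not turn. The scale relative to Krt19 was chosen after the data were seen. The part of duct cell content in these differences was not tested. In bulk tissue, fewer cells of a type and less RNA per cell cannot be told apart.

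**Figure D4:**
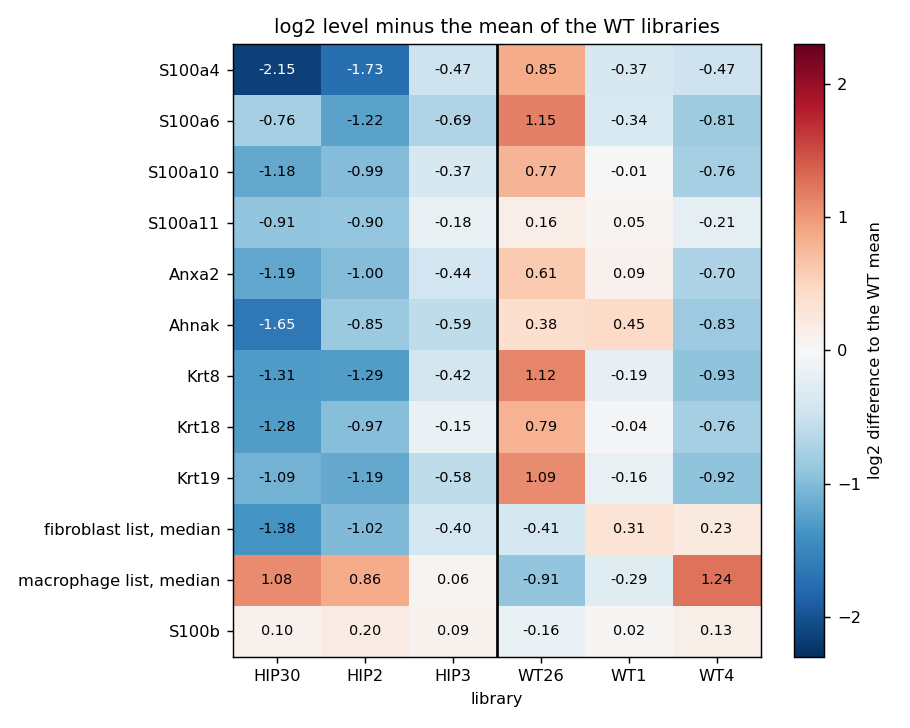
Log2 level in each library minus the mean of the 3 WT libraries, for S100 genes, partners and duct keratins, with the medians of the fibroblast and macrophage lists; HIP libraries stand left of the line. S100a10, Anxa2 and the keratins are positive in WT26 and negative in all HIP libraries and WT4.

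Genes of fibroblasts and macrophages, where S100a4 is also made, had differences of opposite sign. All 15 fibroblast genes were negative, with a median log2 difference of -1.07, and 9 had an unadjusted p under 0.05, against 48.9% and 6.54% of all tested genes; 0 passed limma's test. Without HIP30 the median was -0.68. Of 9 tested genes of smooth muscle and pericytes, 7 were negative and 2 positive, with a median of -0.92, which was -0.41 without HIP30. The summed level of the fibroblast list was 575 to 3609 scaled CPM in HIP and 3389 to 5629.5 scaled CPM in WT libraries. Its most abundant genes were Fn1, fibronectin, which had no read in HIP30, and the collagen gene Col3a1, at 329.7 ± 250.5 scaled CPM in HIP and 646 ± 128 scaled CPM in WT. Measured as a median over the list and set against WT, HIP30 stood at -1.38, HIP2 at -1.02 and HIP3 at -0.40, while WT26 stood at -0.41, WT1 at 0.31 and WT4 at 0.23. By that median WT26, the library with the most S100a4, was the lowest of the WT libraries, and by the summed level, which Fn1 leads, it was the highest. The ratio of S100a4 to Vim, a mesenchymal filament gene, was 1.34, 1.46 and 3.20 in HIP30, HIP2 and HIP3, against 6.86, 2.65 and 1.94 in WT26, WT1 and WT4, a log2 difference of -0.84 (exact permutation p = 0.3). Set against Dcn, decorin of fibroblast matrix, S100a4 had ratios of 1.23, 0.724 and 1.51 in HIP30, HIP2 and HIP3, and of 2.85, 0.663 and 0.923 in WT26, WT1 and WT4. The groups overlapped and the difference was -0.13 (exact permutation p = 0.9). Vim itself differed by -0.61 and Dcn by -1.32, so the smaller difference against Dcn follows from these values. Vim and Dcn were chosen after their values were seen, and the contrast between their ratios carries no test.

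All 13 tested macrophage genes were positive, against 51.1% of all tested genes, with a median log2 difference of 0.69, and 0 passed limma's test. The median was 0.26 without WT26 and 1.27 without WT4. Their summed level was 351 to 2310.4 scaled CPM in HIP and 101 to 620.5 scaled CPM in WT libraries, and most of it in HIP30 and HIP2 came from Mpeg1, a pore-forming protein of macrophages, which had no read in WT26. Lyz2, macrophage lysozyme, stood at 108 ± 18.9 scaled CPM in HIP and 87.1 ± 75.5 scaled CPM in WT. S100a4 was highest in WT26, the library with the lowest macrophage median, -0.91 against WT. The part of fibroblasts and macrophages in the S100a4 difference was not tested.

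The calprotectin genes were nearly silent. S100a8 had 5, 3 and 0 reads in HIP30, HIP2 and HIP3, against 2, 0 and 2 reads in WT26, WT1 and WT4. S100a9 had 16, 10 and 4 reads in HIP30, HIP2 and HIP3, against 4, 0 and 10 reads in WT26, WT1 and WT4. Neither gene reached 1 scaled CPM in any library and the groups overlapped for both. S100a8 was not tested, and S100a9 had a log2 difference of 1.07 (SE 0.96; limma, Benjamini-Hochberg adjusted p = 0.820), a value that depends on the pseudocount because WT1 had no read. The log2 ratio of S100a8 to S100a9 was -1.41 ± 0.17 in HIP and -0.72 ± 0.80 in WT (SD, n = 3 each; exact permutation p = 0.3), and at these depths it is set by a few reads.

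Markers of neutrophils, the main source of calprotectin in blood, were mixed: of 5 tested, 3 were positive and 2 negative, with a median of 0.74 that was 0.0261 without a filter on low counts. Mpo, myeloperoxidase of neutrophil granules, had 1 read in HIP3, 3 reads in WT26 and none in the other libraries. The summed level of the 11 measured markers was 39.4 to 49.7 scaled CPM in HIP and 45.1 to 75.1 scaled CPM in WT libraries. Most of it was Padi4, a histone-modifying enzyme, at 28.9 ± 3.05 scaled CPM in HIP and 46.4 ± 17.0 scaled CPM in WT. Its groups did not overlap, as was the case for 4.27% of all tested genes in the lower direction. Itgam, an integrin that neutrophils share with macrophages, stood at 8.83 ± 2.19 scaled CPM in HIP and 3.30 ± 1.56 scaled CPM in WT, and the groups did not overlap, as was the case for 5.27% of all tested genes in the higher direction (limma, Benjamini-Hochberg adjusted p = 0.691 for both genes).

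Extracellular S100 proteins act through cell surface receptors. Of 9 listed receptors 8 were tested, of which 4 were positive and 4 negative, with a median log2 difference of 0.0175, and 0 passed limma's test. Ager, the receptor for advanced glycation end products that binds several S100 proteins, had 10.5, 7.57 and 5.09 scaled CPM in HIP30, HIP2 and HIP3, against 10.8, 5.16 and 11.6 scaled CPM in WT26, WT1 and WT4. Tlr4, the Toll-like receptor that responds to calprotectin, stood at 92.4 ± 19.7 scaled CPM in HIP and 111 ± 29.3 scaled CPM in WT. Both overlapped between groups, with log2 differences of -0.22 for Ager and -0.25 for Tlr4 (limma, Benjamini-Hochberg adjusted p = 0.939 and 0.840). Alcam, an adhesion molecule that binds calprotectin, stood at 449 ± 122 scaled CPM in HIP and 307 ± 107 scaled CPM in WT. Cd36, a scavenger receptor, stood at 1.73 ± 0.766 scaled CPM in HIP and 0.954 ± 1.39 scaled CPM in WT, with no read in WT26.

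S100a1, a regulator of calcium handling best known in heart muscle, had 27.6, 17.6 and 12.1 scaled CPM in HIP30, HIP2 and HIP3, against 21.6, 17.1 and 13.3 scaled CPM in WT26, WT1 and WT4. The WT libraries lay inside the HIP range, and the log2 difference of 0.0841 (SE 0.37) turned its sign without HIP30 (-0.22) and without WT4 (-0.0942). S100a13, which takes part in the release of signals that lack a secretion peptide, had 6.08, 4.21 and 3.002 scaled CPM in HIP30, HIP2 and HIP3, against 3.88, 2.52 and 4.01 scaled CPM in WT26, WT1 and WT4. Its groups overlapped, with a log2 difference of 0.31 (SE 0.47). Neither gene passed (limma, Benjamini-Hochberg adjusted p = 0.974 for S100a1 and 0.905 for S100a13).

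Of 4 genes of the same release route, all were negative, with a median of -0.37, and 0 passed limma's test. Fgf1, a growth factor released together with S100a13, stood at 8.17 ± 3.65 scaled CPM in HIP and 11.4 ± 2.80 scaled CPM in WT. Sphk1, a sphingosine kinase of that route, stood at 7.74 ± 3.53 scaled CPM in HIP and 12.6 ± 7.20 scaled CPM in WT. Both overlapped between groups.

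S100b, the glial member, was the steadiest of the tested members: it had 20.7, 22.2 and 20.6 scaled CPM in HIP30, HIP2 and HIP3, against 17.3, 19.7 and 21.3 scaled CPM in WT26, WT1 and WT4. Its highest level was 1.28 times its lowest, where the other members without a 0 spread 2.10-fold to 8.01-fold. The log2 difference was 0.13 (SE 0.24; limma, Benjamini-Hochberg adjusted p = 0.931). Sox10, a transcription factor that defines glia, had at most 7 reads in any library. The 9 glial markers summed to 238.5 to 348 scaled CPM in HIP and 326 to 403.5 scaled CPM in WT libraries, and Erbb3 and L1cam, which epithelia also express, made up most of that sum. Of 5 tested, 3 were positive and 2 negative, with a median of 0.24, and the part of glia in the S100b level was not tested.

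S100g, calbindin-D9k, a calcium buffer of absorbing intestinal cells that depends on vitamin D, had 4.32, 6.17 and 1.96 scaled CPM in HIP30, HIP2 and HIP3, against 8.70, 5.53 and 3.16 scaled CPM in WT26, WT1 and WT4. The groups overlapped, and the log2 difference was -0.50 (SE 0.58; limma, Benjamini-Hochberg adjusted p = 0.871). Without HIP3 the difference was -0.0504. Of 10 listed genes of calcium transport and its hormones 7 were tested, with 4 positive, 3 negative and a median of 0.17. None of them passed limma's test. At an unadjusted p under 0.05 there were 3, Vdr, Atp2b4 and Esr1, against 6.54% of all tested genes (3.26% lower and 3.29% higher in HIP). Trpv6, the calcium channel that works with S100g in intestine, stood at 49.7 ± 6.79 scaled CPM in HIP and 45.5 ± 15.6 scaled CPM in WT.

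In that list, the groups did not overlap for Vdr and Atp2b4. Vdr, the vitamin D receptor, had 23.1, 33.9 and 56.6 scaled CPM in HIP30, HIP2 and HIP3, against 64.5, 69.5 and 57.3 scaled CPM in WT26, WT1 and WT4. Atp2b4, a calcium pump of the plasma membrane, had 6.32, 7.999 and 13.7 scaled CPM in HIP30, HIP2 and HIP3, against 20.6, 20.3 and 24.4 scaled CPM in WT26, WT1 and WT4. The log2 differences were -0.84 for Vdr (SE 0.32) and -1.28 for Atp2b4 (SE 0.35), and neither passed (limma, Benjamini-Hochberg adjusted p = 0.691 for both; exact permutation p = 0.1 for both). Of all tested genes 4.27% lay without overlap in the lower direction. Esr1, the estrogen receptor alpha gene, had the opposite sign: it had 421, 408 and 39 reads in HIP30, HIP2 and HIP3, against 0, 11 and 122 reads in WT26, WT1 and WT4. Its groups overlapped through HIP3 and WT4, and its log2 difference of 3.70 (SE 1.51) did not pass (limma, Benjamini-Hochberg adjusted p = 0.691). It was 2.26 without WT26, which had no read.

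Among 7 other symbols that start with S100, 2 were tested. S100a16, a member widely expressed in epithelia, had 131, 87.7 and 90.99 scaled CPM in HIP30, HIP2 and HIP3, against 251, 122 and 94.6 scaled CPM in WT26, WT1 and WT4. It too was highest in WT26, and its log2 difference of -0.49 did not pass (limma, Benjamini-Hochberg adjusted p = 0.762). S100pbp, which encodes a nuclear protein that binds S100 proteins and is not a family member, differed by 0.32. S100a3, the chromosomal neighbour of S100a4, had 0, 3 and 4 reads in HIP30, HIP2 and HIP3, against 44, 8 and 39 reads in WT26, WT1 and WT4. Its groups did not overlap, as for 4.27% of all tested genes in that direction. It was not tested, because the filter asks for 0.61 CPM in 3 libraries and only WT26 and WT4 reached that. S100a5 and S100z had at most 7 and 14 reads in any library, and S100a7a and S100vp 1 read each in all 6 libraries together.

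The genes with the most similar profiles were ranked by Pearson's r of log2 levels over the 6 libraries, a description with few points in which every gene shares the same libraries. For S100a4 these were Acot7, Cav1 and LOC500797 (r = 0.996, 0.996 and 0.992), and for S100a6 they were Pars2, Cltb and Adam15 (r = 0.999, 0.998 and 0.998). For S100a10 they were Prnp, Lmna and Tmbim1 (r = 0.998, 0.996 and 0.996), and Anxa2 had r = 0.993 with it. Of 9996 other genes, 109 had r over 0.95 with S100a4, 126 with S100a6 and 178 with S100a10, so that such values were common. Of all pairs of tested members, S100a6 and S100b had the lowest r over the same libraries (-0.988). WT26 was the highest library for S100a6 and the lowest for S100b. The level of S100b spread only 1.28-fold, where that of S100a6 spread 5.18-fold, and r does not show this.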

How the data were processed

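RNA from laser-captured glands was sequenced in 3 HIP and 3 WT libraries, grouped by their titles. The submitters' processing notes name STAR, HTSeq, edgeR and limma and the build rn5, without roles, and do not state how strand was handled. The authors deposited a log2 value per gene and library for 15679 rows. These are log2 CPM with a prior, since a gene without reads stands at -6.04 in every library. Whole reads were recovered for 100% of entries within 0.1 reads. The 4 rows of symbols listed more than once were left out.

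TMM factors (trims of 30% and 5%; 0.933 to 1.09) were computed from the reads. A gene entered the test with 0.61 CPM (10 reads in a library of median size) in 3 libraries and 15 reads over all, which left 12102. Because the values are on a log2 scale, limma 3.58.1 (R 4.3.3) was run with its trend option on log2 of scaled CPM plus 0.121 CPM (2 reads); this understates changes of low genes. P-values were adjusted by Benjamini-Hochberg over all tested genes. The steps were tested on simulated reads. Ratios and single genes had exact permutation tests (scipy 1.17.1).

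Members and lists were chosen with earlier results of these data known. The text names all members, other S100 symbols, and per partner list the 2 genes of lowest p plus a set named in advance. It also names the 2 most abundant markers of a list; Vim, Dcn, Mpo, Esr1 and Sox10 were added after their values were seen. Promoters are RefSeq's (GRCr8). Alternatives covered scaling, filters, pseudocounts, limma-voom, a term for the title numbers (26 and 30 against 1 to 4, not stated to be a batch) and leaving out each library.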

Additional observations from a re-analysis of the deposited data

How the results depend on the processing

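The count of called genes was 0 for the 9 tested members and for all 12102 genes in each of 16 alternative settings, where limma's unadjusted count went from 792 to between 235 (without HIP2) and 1804 (without HIP3), and to 2388 with limma-voom and sample quality weights. For the 9 members this count ran from 0 to 4. The differences of S100a4, S100a6, S100a10 and S100a11 kept a negative sign in these settings; with libraries left out they ran from -1.94 to -1.03, -1.30 to -0.32, -1.23 to -0.46 and -0.90 to -0.54. Relative to Krt19, an alternative chosen after seeing the data, S100a6 (0.0576), S100a10 (0.10), S100a11 (0.29) and S100g (0.45) turned positive. Krt19 itself differed by -0.95, so negative differences smaller in size had to turn. The cause of the Krt19 difference was not tested. With libraries left out S100a1 ran from -0.22 to 0.37 and the log2 ratio of S100a10 to Anxa2 from -0.0253 to 0.11, with the negative values of the ratio without WT1 and without WT4 (-0.00236). The S100a9 difference was 1.70 with a pseudocount of 0.5 reads, 0.46 with 10 reads and 2.75 with quality weights. List medians of calcium transport were -0.0352 without a filter and with the stricter filter (30 reads), and -0.27 to 0.43 with libraries left out. Glial medians were -0.19 without a filter, -0.24 with quality weights and -0.20 to 0.38 with libraries left out. The median of 5 tested adipocyte genes was 0.47 in the main fit, with 3 positive and 2 negative, and 0 passed limma's test. Of these 5, 4 had an unadjusted p under 0.05, against 6.54% of all tested genes. Adipocyte medians were -0.36 with the stricter filter and -0.24 to 1.14 with libraries left out. With libraries left out, the median ran from -1.26 to -0.68 for fibroblast, 0.26 to 1.27 for macrophage, 0.36 to 1.30 for neutrophil, -0.36 to -0.16 for partner, -0.0653 to 0.16 for receptor and -0.66 to -0.26 for release genes. Neutrophil medians were 0.0261 without a filter and 0.0552 with the stricter filter. Filters change which genes a list holds; for the other settings the cause was not tested. No paired analysis was possible because the HIP and WT titles share no number. Depth limits S100a8, S100a9 and S100a3, which rest on 12, 44 and 98 reads in all.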
